A study of Drosophila melanogaster with 4 samples.

Results

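Histone H3 enrichment in heads of wild-type Drosophila melanogaster was examined on 3 sequences of pericentric heterochromatin, 2LHet, 3LHet and 3RHet. The members are all lines of the joint list of both replicates (the combined list) that carry one of these sequence names. They number 298 of 16757 regions, with 17 on 2LHet, 123 on 3LHet and 158 on 3RHet. The study used chromatin immunoprecipitation and sequencing (ChIP-seq) on nuclei of sieved heads from Oregon-R flies, a wild-type laboratory strain, labelled as mixed adults. The antibody was H3 antibody3, with 2 ChIP libraries, and 2 Input libraries of the same strain, genotype and stage served as their references. The sexes of the flies, their exact ages and whether the replicates came from separate cages are not given in the labels, so the spread between replicates may be partly technical. A head holds neurons, glia, muscle, fat and cuticle-forming cells, and the lists carry no gene by which the tissue could be checked.

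Pericentric heterochromatin flanks the centromeres and stays compact through the cell cycle. It is rich in transposable elements and satellite repeats, carries few genes, and its nucleosomes are typically methylated on lysine 9 of H3 and bound by heterochromatin protein HP1. H3 itself is a core part of nearly every nucleosome, so H3 ChIP relative to Input reports where nucleosomal DNA is recovered more than the genome at large. The name Het in the reference, FlyBase release 5, marks assembled heterochromatic sequence next to the named arm. That the members are pericentric rests on this name alone, since the lists hold positions and scores only. Without a genome or annotation of the same release, the regions are given by position, with no gene, exon or repeat.

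The data are 3 lists of enriched regions, 1 per ChIP replicate and the combined one. Across the 3 sequences the replicate lists held 41 and 55 regions (48 ± 9.90, SD, n = 2). Read depth was not at hand, so a region missing from a list is not shown to lack H3. Each line also carries the authors' score, whose definition is not stated. Regions of the combined list that ran past the end of a reference sequence numbered 2 in all, and both were members. The last region of 2LHet was listed 322 bp beyond the end and the last of 3RHet 835 bp beyond it, and both were shortened to the end.

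3RHet was the most densely covered of the 3 sequences in every list. In the combined list 10.2% of its bases lay in regions, against 7.40% of 3LHet and 7.38% of 2LHet. The replicate lists covered 1.80% and 2.12% of 3RHet (1.96% ± 0.228, SD, n = 2). On 3LHet they covered 0.768% and 1.24% (1.00% ± 0.332, SD, n = 2), and on 2LHet 1.15% and 1.296% (1.22% ± 0.104, SD, n = 2). The lower replicate of 3RHet therefore lay above the higher replicate of each other sequence, and the values did not overlap. All 3 values of a library come from the same chromatin, and with 2 libraries no test between sequences was made. For scale, the combined list covered 21.8% of the 5 major arms (X and the arms of chromosomes 2 and 3), and the replicate lists 3.28% ± 0.448 (SD, n = 2). The sparsest of those arms, X, had 12.7% in the combined list, above 3RHet. In the replicate lists the order was the other way, with 1.38% and 1.84% on X against 1.80% and 2.12% on 3RHet.

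**Figure D1:**
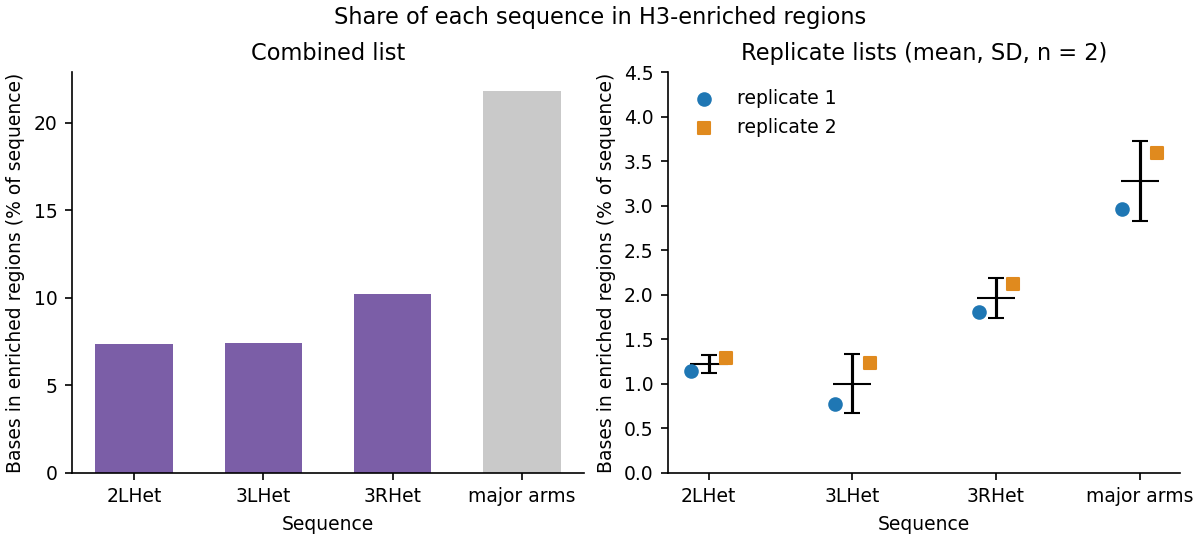
Percentage of bases in H3-enriched regions for 2LHet, 3LHet, 3RHet and the major arms, in the combined list (left, bars) and in the replicate lists (right, points, with the mean and SD of 2 libraries). 3RHet stands at 10.2% in the combined list, above 2LHet and 3LHet at 7.38% and 7.40% and below the arms at 21.8%.

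The higher coverage of 3RHet went mainly with more regions rather than longer ones. It carried 62.8 combined regions per Mb, against 48.1 on 3LHet and 46.1 on 2LHet. Relative to 2LHet and 3LHet pooled, its covered share was 1.38 times as high, its number of regions per Mb 1.31 times and its mean region length 1.05 times. In the replicate lists the covered share was 2.21 and 1.71 times as high (1.96 ± 0.355, SD, n = 2). The number per Mb was there 2.01 and 1.62 times, and the mean length 1.10 and 1.06 times. Leaving out the densest 100 kb window of each sequence gave a ratio of covered shares of 1.42 in the combined list. As 2LHet and 3LHet lost their densest windows too, this cannot show how much the window of 3RHet alone added.

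By length, 3RHet held more regions per Mb in each class. Regions under 1200 bp numbered 21.1 per Mb on 3RHet, 16.8 on 3LHet and 13.6 on 2LHet. Those from 1200 bp to under 2000 bp numbered 31.0, 23.5 and 27.1 per Mb, and those of 2000 bp or more 10.7, 7.83 and 5.42. By score the picture was not uniform. Regions with a score from 0.4 to 1 numbered 50.4 per Mb on 3RHet, 31.3 on 3LHet and 27.1 on 2LHet. Regions scored under 0.4 were sparser on 3RHet, at 7.94 per Mb against 11.3 on 3LHet and 10.8 on 2LHet. Regions scored over 1 were also sparser there, at 4.37 per Mb (11 regions) against 5.48 (14 regions) and 8.13 (3 regions). Above a score of 1 the ratio of covered shares turned, with 3RHet at 0.779 times the others. These bands were chosen after the scores had been seen. The surplus on 3RHet thus lay in the middle band of scores, which held 127 of its 158 regions (80.4%). That band held most regions elsewhere too, with 64.3% on 2LHet and 3LHet pooled and 57.6% on the major arms.

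**Figure D2:**
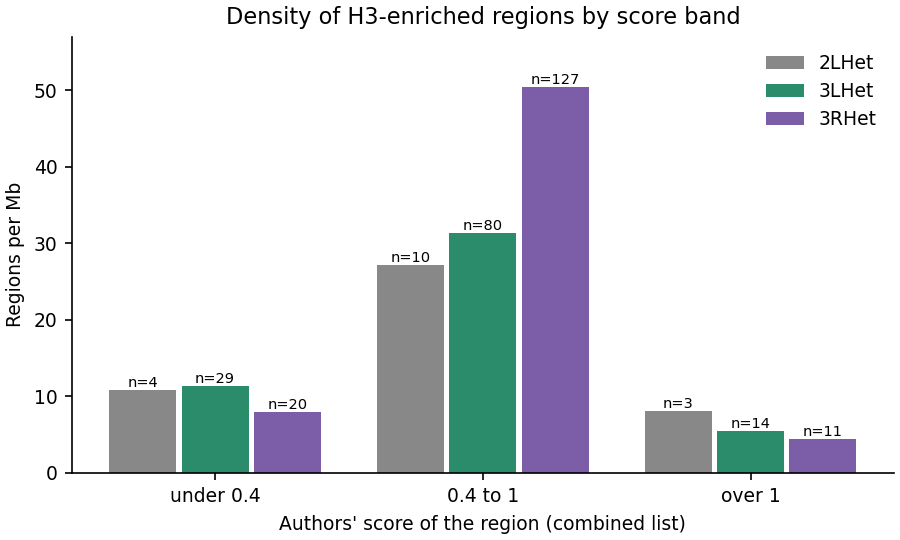
Combined-list regions per Mb in 3 bands of the authors' score, for 2LHet, 3LHet and 3RHet, with the number of regions above each bar. 3RHet exceeds the others between 0.4 and 1 (50.4 per Mb against 31.3 and 27.1) and lies below them in the other bands.

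Regions were also split by whether a replicate list met them by at least 1 bp. Combined regions met by neither replicate numbered 44.9 per Mb on 3RHet, 36.8 on 3LHet and 32.5 on 2LHet. Those met by at least 1 replicate numbered 17.9, 11.3 and 13.6 per Mb. 3RHet was thus the densest in both classes. The share of its regions met by at least 1 replicate was 28.5% (45 of 158), while 23.6% (29 of 123) were met on 3LHet and 29.4% (5 of 17) on 2LHet. Over all 3 sequences it was 26.5% (79 of 298), close to the 26.4% of the whole combined list.

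Along each sequence the regions were spread widely, with thin stretches near the ends of 3LHet. In 5 equal parts of 3RHet, counted from its first base, the combined list covered 8.14%, 10.4%, 10.1%, 14.5% and 7.86%. On 3LHet the same parts had 4.67%, 7.87%, 11.6%, 9.49% and 3.35%. The third part of 3LHet was therefore covered more than the third part of 3RHet, and the other 4 parts less. The low ends of 3LHet showed in the replicate lists as well, with 0% and 0.411% in the first part and 0.278% and 0.383% in the last. On 3RHet the first part had 2.06% and 1.08%, and the last 1.10% and 1.70%. The fourth part of 3RHet, 1510505 to 2014006, was the densest in each list, with 2.92% in replicate 1 and 3.87% in replicate 2. On 2LHet, whose parts hold 2 to 5 regions each, the values ran from 3.79% to 10.8% in the combined list.

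**Figure D3:**
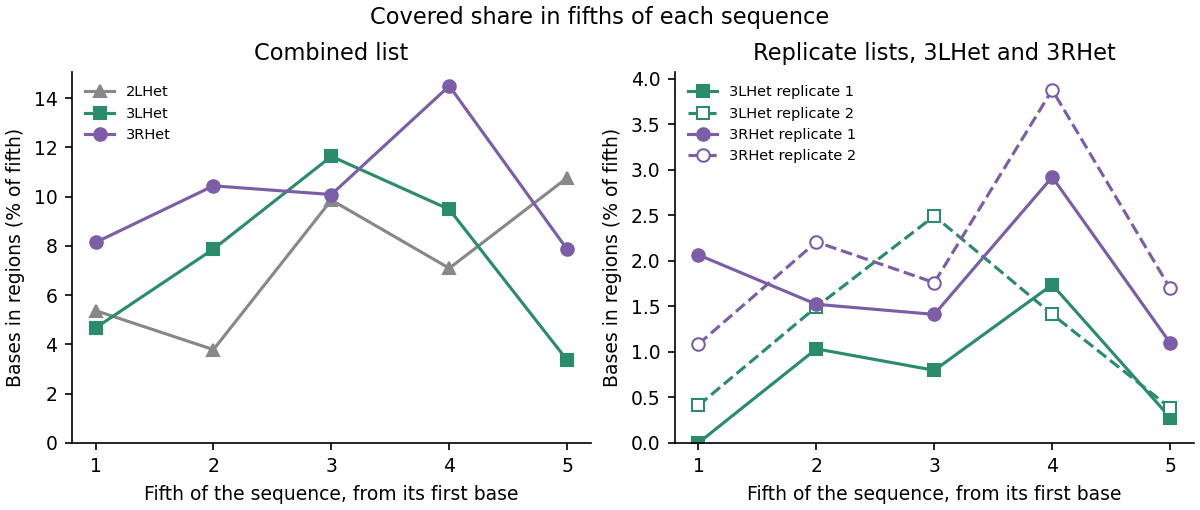
Percentage of bases in regions in 5 equal parts of each sequence, in the combined list (left) and in each replicate list for 3LHet and 3RHet (right; solid lines replicate 1, dashed lines replicate 2). 3RHet peaks in the fourth part (14.5% in the combined list) and 3LHet falls to 4.67% and 3.35% in its first and last parts.

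In windows of 100 kb the combined list covered between 0% and 20.5% of 3RHet, with a median of 9.86% over 25 full windows. On 3LHet the range was 0% to 20.1% and the median 7.57%, also over 25 windows. The 3 full windows of 2LHet had 3.97%, 6.24% and 9.07%. Windows with 8 or more regions numbered 9 on 3RHet and 2 on 3LHet, and windows covered by over 10% numbered 12 and 5. The densest window of 3RHet was 1900001 to 2000000, with 12 regions. Its median score of 0.389 was the lowest of any window of 3RHet that held a region. The densest of 3LHet was 1400001 to 1500000, with 10 regions, and of 2LHet 100001 to 200000, with 5. On the major arms the median over 1189 such windows was 20.8%, and 14.3% of them were covered by under 10%.

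Both replicates had a region starting in 14 of the 25 windows of 3RHet, and neither had one in 6. On 3LHet the counts were 6 windows with both and 7 with neither. These counts rest on 58 replicate regions on 3RHet and 32 on 3LHet, and sequences with more regions fill more windows.

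**Figure D4:**
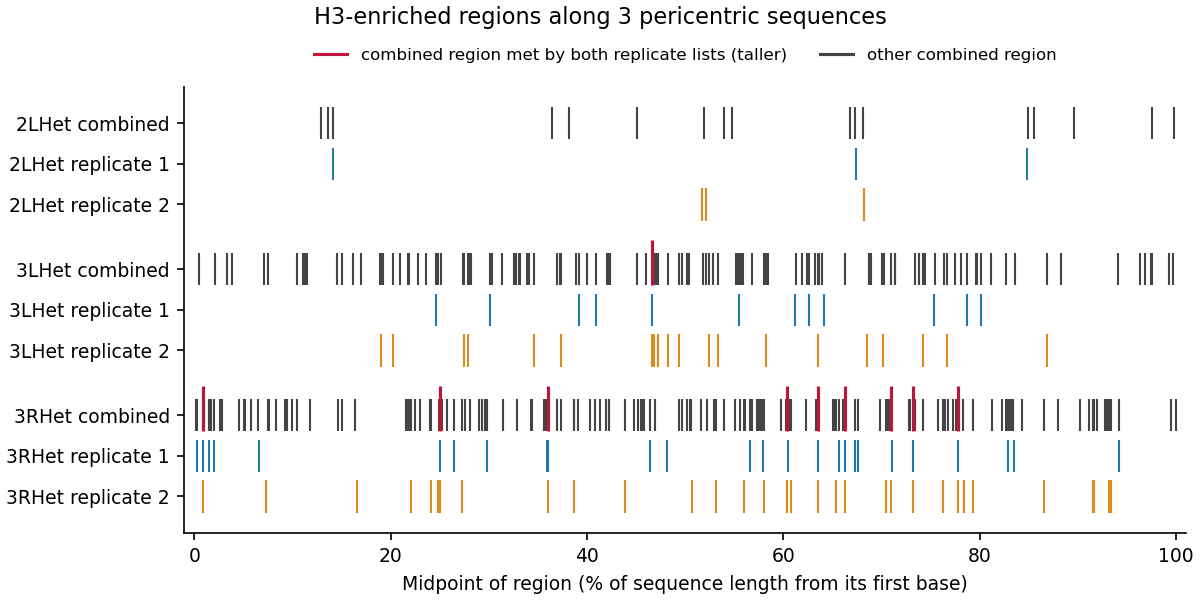
Midpoints of regions along 2LHet, 3LHet and 3RHet, as a percentage of sequence length from the first base, for the combined list and each replicate list. Each tick is 1 region, and taller red ticks mark the 10 combined regions met by both replicate lists, of which 9 lie on 3RHet.

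Neighbouring combined regions stood 8402 bp apart at the median on 3RHet (middle 50% of gaps 2423 to 20120 bp). The median gap was 11526 bp on 3LHet (3712 to 24724 bp) and 6024 bp on 2LHet over 16 gaps. On the major arms it was 3086 bp. A cluster was defined as 3 or more regions with gaps of at most 5 kb. Clusters held 54 of the 158 regions of 3RHet (34.2%), 27 of the 123 of 3LHet (22.0%) and 6 of the 17 of 2LHet (35.3%). Over the whole combined list the share was 66%, and on the major arms 68.4%. The shares did not follow the order of density, since 2LHet had the fewest regions per Mb and the highest share, though over 17 regions only. The replicate lists formed 0 clusters on these sequences. Clusters were rare in those lists elsewhere too, with 5.40% and 8.28% of regions on the major arms, and 0% and 2.31% on X.

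There were 12 clusters on 3RHet, 7 on 3LHet and 2 on 2LHet. The largest was 3RHet 2081948 to 2101623, with 7 regions over 19676 bp. It was met by 2 replicate 1 regions and 0 of replicate 2. The next, 3RHet 1946251 to 1962378, held 6 regions with scores of 0.229 to 0.436. On 3LHet the largest were 1190045 to 1208539 and 1408296 to 1429446, with 5 regions each. On 2LHet both clusters, 46834 to 52690 and 245955 to 252582, had 3 regions. A replicate region was counted anywhere in a cluster's span, gaps included. The median span was 15573.5 bp on 3RHet, 8750 bp on 3LHet and 6242.5 bp on 2LHet. The count was not made over all clusters of the list, so it is not read as a trait of the members. At least 1 replicate region lay in 11 of the 12 clusters of 3RHet, in 5 of the 7 of 3LHet and in both of 2LHet. The exception on 3RHet, 1144847 to 1153983, held 3 regions with scores of 1.73 to 2.33, among them the 2 highest of that sequence.

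Stretches without any combined region were long. The longest of 3LHet ran from 2256166 to 2403096 (146931 bp, 5.75% of the sequence) and the longest of 3RHet from 2371662 to 2505038 (133377 bp, 5.30%). The longest of 2LHet was 52691 to 133930 (81240 bp, 22.0%). Replicate regions held 0 bp of all 3. On 3RHet a second empty stretch, 414091 to 541474 (127384 bp), contained 1390 bp of a replicate 2 region. Gaps over 50 kb numbered 7 on 3RHet, 12 on 3LHet and 2 on 2LHet, against 77 on the much longer major arms. The longest gap on those arms was 191520 bp, on 2L, so stretches of this length were not particular to the members.

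Members were short, and similar in length on the 3 sequences. The median was 1344 bp on 3RHet (middle 50%, 1148 to 1841 bp), 1313 bp on 3LHet (1147 to 1711 bp) and 1494 bp on 2LHet (1184 to 1701 bp), against 1429 bp on the major arms. Apart from the shortened last region of 3RHet, at 946 bp, no member was below 1001 bp, which was also the shortest length on the major arms. The longest were 3RHet 1517512 to 1524197 (6686 bp, score 0.322) and 3LHet 1279308 to 1285510 (6203 bp, score 0.306). The latter, though the longest on its sequence, was met by neither replicate. The next on 3RHet were 1785398 to 1790426 (5029 bp) and 20027 to 24764 (4738 bp). On 3LHet they were 1925311 to 1928730 (3420 bp), met by replicate 1 only, and 1412253 to 1415669 (3417 bp), met by neither. On 2LHet the longest, 189806 to 193154 (3349 bp), took in 2 replicate 2 regions that abut each other at 191505 and 191506. It was followed there by 250045 to 252582 (2538 bp), met by replicate 2 only.

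The scale of the scores could be read from their values. For 296 of the 298 members, 2 raised to the difference from the list's highest score was a ratio of whole numbers, with a denominator up to 20000 and within a tolerance of 1e-08. The same held for 41 of 41 and 55 of 55 replicate regions. With base 10 it held for 1 combined, 2 replicate 1 and 0 replicate 2 regions, and with base e for 0 in each list. The scores therefore behaved as log2 values of ratios of whole numbers times a constant per list, so a difference of 1 stands for a 2-fold difference in that ratio. What the whole numbers count is not stated, and no read number was taken from them.

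The 3 sequences carried higher scores than most arms. The median was 0.518 on 3RHet, 0.473 on 3LHet and 0.507 on 2LHet. It was 0.412 on the major arms together, with 0.403 to 0.405 on the autosomal arms and 0.517 on X. Of the members, 76.5% were at or above the combined list's median score, against 50% of the list by construction. Scores over 1 were given to 28 members (9.40%), against 260 regions (1.55%) of the whole list and 49 (0.309%) of the arms' regions. Most of the 260 therefore lay on sequences outside both the members and the major arms. Such scores were thus not particular to the members. No test was made, since regions of 1 list are not replicates. In the replicate lists the medians over the 3 sequences were 0.765 and 0.693, against 0.578 and 0.599 on the major arms of the same lists.

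Many of the highest scores belonged to short regions, but the top regions of 2LHet and 3RHet were longer. On 3LHet the top was 98713 to 99713 (1001 bp) with 3.25. The next, 1082644 to 1083655 (1012 bp) and 1814312 to 1815427 (1116 bp), both had exactly 2.78. Shared scores were common, with 197 of the 298 members (66.1%) sharing theirs with another region of the list. Over the whole list the share was 72.9%. On 3RHet the top 3 were 1152567 to 1153983 (1417 bp) with 2.33, 1150230 to 1151230 (1001 bp) with 2.17 and 1430982 to 1432003 (1022 bp) with 1.85. On 2LHet they were 329741 to 331715 (1975 bp) with 1.45, 51645 to 52690 (1046 bp) with 1.20 and 201561 to 202565 (1005 bp) with 1.16. Replicate 1 met 1 of these 9, the region 51645 to 52690 on 2LHet, and replicate 2 met 0. Of the 28 members scored over 1, 17 were at most 1100 bp long and the longest was 1979 bp. Such lengths were not particular to the members, since 39 of the 49 regions scored over 1 on the major arms were at most 1100 bp. Relative to the list's top score, the ratio had a denominator of at most 64 for 12 of the 28, and for 10 of the other 268 members with a whole-number ratio. Denominators were not counted over the whole list and depend on the top score taken as reference. They are therefore not read as a trait of the members. The ratio was 9 to 16 for the top region of 3LHet and 13 to 32 for the 2 regions there at 2.78.

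Few of the highest-scored regions were met by a replicate list. Of the 28 members scored over 1, 2 (7.14%) were met by at least 1 replicate, and on the major arms 3 of 49 (6.12%) were. In the band from 0.7 to 1 it was 10 of 33 members (30.3%) and 3 of 58 arm regions (5.17%). From 0.5 to 0.7 it was 30 of 79 (38.0%) and 27.3% on the arms. From 0.4 to 0.5 it was 26 of 105 (24.8%), and under 0.4 it was 11 of 53 (20.8%), against 28.5% and 24.9% on the arms. A longer region has more room to be met, and the median length of members was 1402 bp in the band from 0.5 to 0.7 and 1051 bp over 1. The lists also differed in their shortest regions. On these sequences replicate regions were at least 1314 bp long in replicate 1 and 1302 bp in replicate 2. Combined regions went down to 1001 bp, apart from the one shortened to 946 bp. On the major arms the shortest were 1301 bp in both replicate lists and 1001 bp in the combined list. These lower limits were thus not particular to the members. Of the 28 members over 1, 17 were at most 1100 bp, shorter than any replicate region here, and on the major arms 39 of 49 were. The part of length in these shares was not tested.

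**Figure D5:**
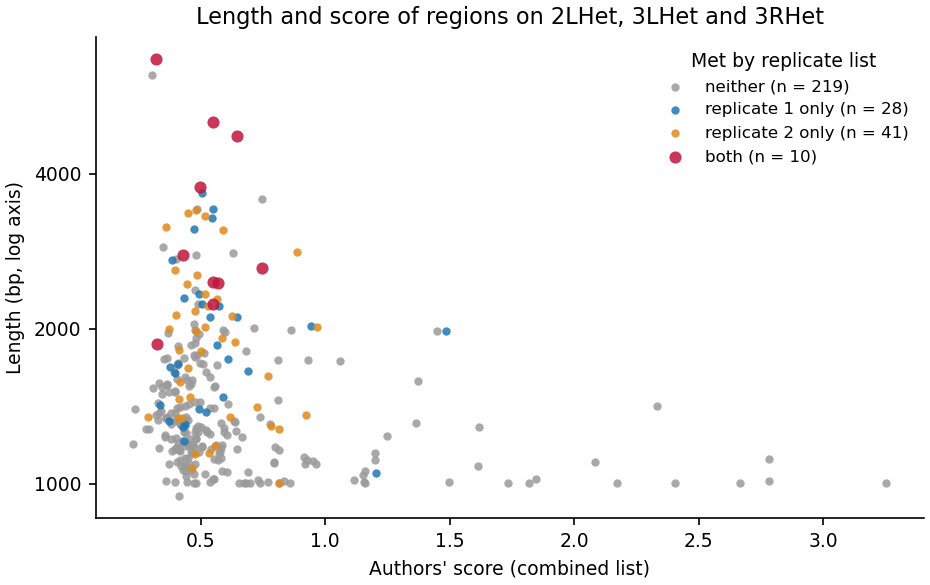
Length (log axis) against the authors' score for the 298 members, coloured by the replicate lists that met them. The 10 regions met by both replicates are 1863 to 6686 bp long with scores of 0.322 to 0.745, and the members scored over 1 are 1001 to 1979 bp long.

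The next question was which members recurred in the single libraries. Replicate 1 met 38 members and replicate 2 met 51, or 12.8% and 17.1%, against 13.2% and 16% of the whole combined list. Of the 298, 10 (3.36%) were met by both, against 2.8% of the list. Replicate 1 only met 28, replicate 2 only met 41, and neither met 219. The regions met by both had a median length of 2700 bp, those met by neither 1258 bp. The latter median lies below the shortest replicate region on these sequences, 1302 bp, and the part of length was not tested. On the major arms the medians were 2747 bp and 1294 bp, and the shortest replicate region was 1301 bp. The lists share their libraries, so these counts describe the lists. Both lists met 9 of 158 regions on 3RHet and 1 of 123 on 3LHet, but 0 of 17 on 2LHet.

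The 10 regions are given with the score each list assigned, in the order combined, replicate 1, replicate 2. Scores of different lists have different constants and are not compared. The region of 3LHet was 1190045 to 1192819 (2775 bp), with 0.430, 0.565 and 0.490. It opens the cluster of 5 regions named above. Close to the start of 3RHet lay 20027 to 24764 (4738 bp), with 0.646, 0.709 and 0.797. The region 3RHet 629622 to 631856 (2235 bp) had 0.550, 0.846 and 0.652. At 3RHet 905159 to 908925 (3767 bp, 0.498 in the combined list) replicate 1 had 2 regions 220 bp apart, the higher at 0.791, and replicate 2 had 1 at 0.763.

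The other 6 lay between 60.4% and 77.8% of the length of 3RHet, within the fourth part. They were 1517512 to 1524197 (0.322, 0.434 and 0.357), 1598111 to 1600571 (0.549, 0.503 and 0.652) and 1666552 to 1669175 (0.745, 0.779 and 0.885). Further along came 1785398 to 1790426 (0.551, 1.32 and 0.701), 1842279 to 1844732 (0.571, 0.637 and 0.689) and 1956994 to 1958856 (0.325, 0.505 and 0.543). In 8 of the 10 the replicate regions shared bases. In the other 2, 1517512 to 1524197 and 1785398 to 1790426 on 3RHet, the replicates met different stretches of 1 long combined region. In the second of these the replicate 2 region ended 107 bp before the replicate 1 region began.

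Directly compared, 8 of 41 replicate 1 regions (19.5%) met a replicate 2 region, against 19.1% of the whole replicate 1 list. In the other direction 8 of 55 replicate 2 regions (14.5%) met one of replicate 1, against 15.8% of its list. Of the 8 pairs, 7 were on 3RHet, where 7 of 26 and 7 of 32 regions were met, and 1 on 3LHet, where 1 of 12 and 1 of 20 were. The pairs shared 899 to 2693 bp, or 47.3% to 93.3% of the bases either covered. The closest match was at 3RHet 1598440 to 1600466 in replicate 1 and 1598307 to 1600478 in replicate 2, which shared 2027 bp. The loosest was the pair on 3LHet, where the replicate 2 region started 549 bp before that of replicate 1.

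Most unmatched regions had no region of the other replicate within 20 kb, but both lists were sparse here. Neighbouring regions stood 68612.5 bp apart at the median in replicate 1 and 57789.5 bp in replicate 2. The distances were not taken over the whole lists, so they are not read as a trait of the members. Of the 33 replicate 1 regions without a partner, 5 had a replicate 2 region within 5 kb and 21 had none within 20 kb, and the median distance was 27316 bp. Of the 47 such replicate 2 regions, 6 had one within 5 kb and 32 had none within 20 kb, at a median of 43709 bp. On 3LHet 10 of 11 unmatched replicate 1 regions were more than 20 kb from any of replicate 2, and on 3RHet 9 of 19. Replicate 2 had 7.83 regions per Mb on 3LHet and 12.7 on 3RHet, and the part of this in the distances was not tested. The combined list took in 39 of 41 replicate 1 regions (95.1%) and 52 of 55 replicate 2 regions (94.5%), against 96.4% and 96.5% of the whole lists. Replicate 1 regions outside it were 3LHet 1639231 to 1640714 and 3RHet 1212576 to 1214010. The latter had a score of 1.74, the second highest of replicate 1 on 3RHet after 2.45 at 2369806 to 2371401. The replicate 2 regions outside it were 3LHet 1750433 to 1751862 and, on 3RHet, 183392 to 184764 and 416100 to 417489. These 5 regions are named because they were missing from the combined list, after their values were seen.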

How the data were processed

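H3 ChIP from fly head nuclei was analysed from 3 deposited region lists, with 2 ChIP libraries and an Input library for each. Per the file headers, coordinates are on FlyBase release 5. Per the submitters' processing notes, Bowtie 0.12.7 was used. The region caller, its threshold, the joining of replicates and the treatment of multiply mapping reads are not stated in the labels or headers. The deposited score of each region is the authors'. No counts or coverage were used, so depth is unknown and no counting interval is given.

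From the lists, regions were counted, bases summed, and overlaps of at least 1 bp taken, with Python 3.11.15, numpy 2.4.6, pandas 2.3.3 and scipy 1.17.1. The counting steps were tested on simulated lists. No significance test was made: 1 antibody in 2 libraries gives no groups to compare. Regions named are the 3 highest-scored and 3 longest per sequence, those met by both replicates, and the densest windows, largest clusters and longest empty stretches. Members, bands and limits were chosen with earlier results of these data known. The gene table at hand is on release 6, so no gene names or sequences are given. Alternatives concerned score, length, merging, overlap, cluster gap and replicate choice.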

Additional observations from a re-analysis of the deposited data

How the results depend on the processing

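Of 54 values under alternatives, 31 stayed within set limits. These were the relative spread between replicates, an exact 95% binomial interval for shares of regions, and a factor of 1.5 for counts. With 2 replicates, a replicate mean cannot leave that spread when 1 of them is dropped. Those values therefore stayed by construction and carry no information. The binomial intervals treat regions as independent, which regions of 1 list are not, so they are yardsticks only. At or above the median score, the covered share of 3LHet counted as unmoved, and those of 2LHet and 3RHet as moved. The limit was widest on 3LHet, whose replicates differed most for their mean (1.00% ± 0.332, SD, n = 2). On 2LHet it was 1.22% ± 0.104 and on 3RHet 1.96% ± 0.228. The label therefore does not mean that 3LHet changed less. The ratio of covered shares, 3RHet to 2LHet and 3LHet (1.38), was 2.21 with the replicate 1 list and 0.779 among regions scored over 1, and above 1 under each other alternative. Both that score limit and leaving out 2LHet were chosen after seeing the data. At or above the median score, the covered share was 5.91% on 2LHet, 5.07% on 3LHet and 8.15% on 3RHet, against 7.38%, 7.40% and 10.2% over all regions. A limit of 1500 bp lowered it to 4.41% on 2LHet, 3.67% on 3LHet and 5.65% on 3RHet, leaving 8, 43 and 62 regions, by construction. Taken from a single replicate list it was 1.15% and 1.296% on 2LHet, 0.768% and 1.24% on 3LHet, and 1.80% and 2.12% on 3RHet. The share of members met by a replicate, 26.5% with both lists, was 12.8% to 17.1% with 1. The median length, 1334 bp, became 1295 bp at or above the median score and 1345 bp after merging regions closer than 500 bp. The share in clusters, 29.2%, was 15.8% with gaps of at most 2 kb, 56.0% with 10 kb and 22.4% at or above the median score.

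Leaving out a replicate gave covered shares of 1.15% to 1.296% on 2LHet, 0.768% to 1.24% on 3LHet and 1.80% to 2.12% on 3RHet, and ratios of 1.71 to 2.21. No paired analysis was possible because no list holds values for an Input library. Unknown depth limits what absence from a replicate list means.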
